A study of Homo sapiens with 8 samples.

Results

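Transcripts outside annotated genes were taken from the long-read assembly of chromatin RNA in HAP1 cells, a near-haploid human leukemia line. A transcript was included if it carried an assembler name (MSTRG) rather than a reference identifier, had a strand, lay on chromosomes 1 to 22, X, Y or M, shared no base with a GENCODE gene on either strand, and was above 0 in both long-read libraries. This left 2924 of the 301869 transcripts in the table. The steps were 72454 MSTRG transcripts, 64368 of them with a strand on these chromosomes, and 5306 of those outside genes. A further 989 were above 0 in replicate 1 only, 1390 in replicate 2 only and 3 in neither. The lowest value inside the rule was 5.9e-05 TPM (a transcript's share of all RNA after division by its length), and the highest value outside it, a transcript at 0 in the other library, was 502 TPM.

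The series holds 8 libraries in 3 groups, all from untreated HAP1 nuclei that were split with a urea and detergent buffer into a chromatin pellet and a soluble nucleoplasm. The groups are short-read chromatin (3 libraries), short-read nucleoplasm (3 libraries) and long-read chromatin (2 libraries). Every fraction received the same volume of ERCC standards, which are synthetic RNAs of known amount, and was depleted of ribosomal RNA. The short-read libraries keep the strand of the RNA. The long-read libraries were made by adding a poly(A) tail enzymatically and priming cDNA with oligo dT, and the kit does not keep the strand. The study describes a computational step that assigns a strand to each read from primer sequences, but it is not stated whether the deposited long-read table was made before or after that step. Each strand of a long-read transcript below is therefore the strand in the table, whose origin is unknown. HAP1 is a single clonal line, so the replicates describe cultures of one line.

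RNA polymerase II often runs on past the annotated end of a gene, and it also starts at enhancers and at promoters in the reverse direction. Many of these RNAs are short-lived or stay bound at chromatin, where they are called chromatin-enriched RNA (cheRNA), and most reference annotations leave them out. Which strand such an RNA comes from decides whether it is read as a continuation of its neighbour, as antisense RNA or as a unit of its own. Repeat families and processed pseudogenes, which are copies of spliced mRNAs put back into the genome, are further sources of transcripts outside genes.

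The ends of the transcripts carried different sequence marks, and the best examples by abundance are shown first. The poly(A) signal AATAAA stood in the last 50 bases of 454 transcripts. The first and second of these by mean TPM lay beside the GENCODE spans of MAT2AP1 and EIF5AP4. These are an unprocessed and a processed pseudogene in that annotation, named for a methionine adenosyltransferase gene and a translation factor gene. Each of these transcripts shared bases with the RefSeq span of the same pseudogene. Their signals are in capitals below, 5′ to 3′ in the direction of the transcript (hg38).
MSTRG.54464.1, chr3:112695415-112695444, minus strand: aatgaagatctaAATAAAatgctaggttct
MSTRG.9748.1, chr10:80246583-80246612, minus strand: aaatcaaacctgAATAAAactacaagttta

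A poly(A) signal read on the wrong strand appears as TTTATT near the start of a transcript. This was found in the first 50 bases of 174 transcripts. The 3 with the highest mean TPM are shown with that motif in capitals.
MSTRG.44759.1, chr2:160946327-160946356, minus strand: tttgatcctggtTTTATTgtattgacaacc
MSTRG.56690.1, chr3:185566852-185566881, plus strand: ggatctattctaTTTATTtgcgctgactga
MSTRG.32490.1, chr17:29201562-29201591, plus strand: aagagaaaaaatTTTATTgtgatataaaat

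Oligo dT can also prime on A-rich stretches inside an RNA. At least 12 A stood in the 20 genomic bases after the 3′ end of 110 transcripts (3.76%), against 3.48% of the 39537 other MSTRG transcripts above 0 in both libraries, which share bases with a gene. At least 12 T stood in the 20 bases before the 5′ end of 81 (2.77%), against 2.43% of the others. The A-rich windows after the ends are in capitals for the 3 most abundant cases, followed by the 3 T-rich windows before the starts.
MSTRG.44759.1, chr2:160903130-160903159, minus strand: tagagagaggAAAAAAAGAGAATAAGCATG
MSTRG.47174.1, chr20:5291085-5291114, minus strand: ttggtgtgggGAAAAAGAAAAAAAAGAGAG
MSTRG.62458.1, chr5:70796181-70796210, minus strand: tcatccttggCTATGAAATAGACAAGAAAA
MSTRG.65991.1, chr6:7480969-7480998, minus strand: TTGTTTTTTTTTTGAAAGCTaggtttgtag
MSTRG.84658.1, chrX:80569731-80569760, minus strand: TTACACTTTTTTTTTTAAAGgtagagatgt
MSTRG.39756.1, chr19:47915336-47915365, minus strand: CTATTATTGTTCCTTTTTTAacttaaaaaa

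MSTRG.44759.1 appears in both of the marks above. It was annotated on the minus strand, with 13 A in the 20 bases after its 3′ end and TTTATT starting 10 bases after its first base. It is 43205 bases long and stood at 20.7 TPM in replicate 1 and 91.3 TPM in replicate 2. No short-read gene lay over it on either strand, so its strand could not be compared with the strand-specific libraries.

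The level of the transcripts was low. The median was 2.86 TPM in replicate 1 and 2.1 TPM in replicate 2, and the highest values were 704 and 1124 TPM. Of the 2924, 162 had a mean of at least 10 TPM and 10 a mean of at least 100 TPM. All of them together held 1.49% of the TPM of replicate 1 and 1.31% of that of replicate 2. The 10 most abundant held 19.3% and 25.5% of these sums.

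The libraries differed widely for single transcripts. The SD of the log2 ratio of both replicates, at a pseudocount of 0.1 TPM, was 1.84 over the 2924 transcripts and 1.72 over the other MSTRG transcripts. In 866 (29.6%) the libraries differed by more than 4-fold, against 23.5% of the others. At least 1 TPM was reached in both libraries by 1771 transcripts, in replicate 1 only by 674, in replicate 2 only by 454, and in neither by 25. The higher of both values lay in a narrow range, with quartiles of 2.39 and 4.77 TPM, while the quartiles of the lower value were 0.643 and 2.20 TPM. With 2 libraries, no test of a single transcript was made, and TPM carries no read depth. The paper reports unequal read numbers for the HAP1 long-read replicates. This difference in depth was not taken into account here, and its part in the differences between the libraries was not tested.

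**Figure D1:**
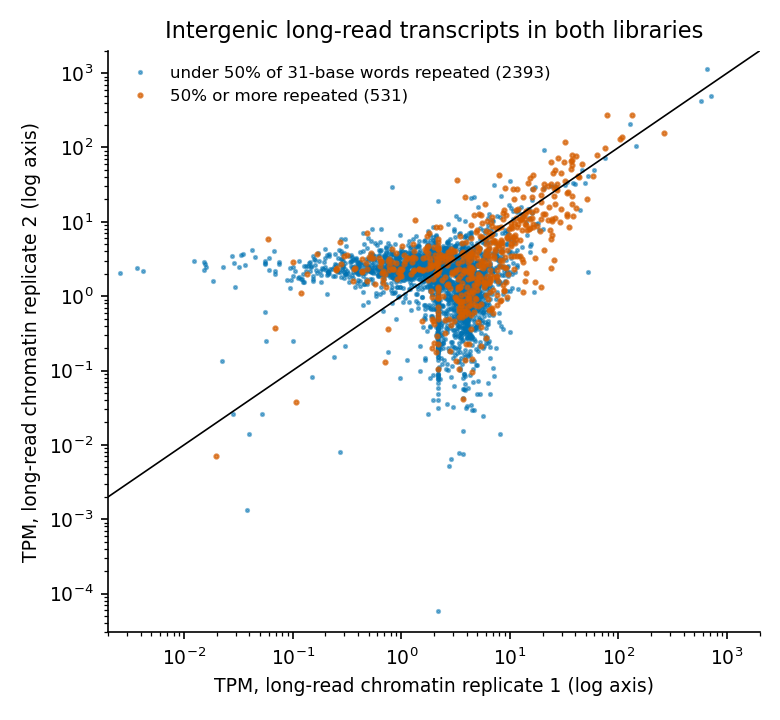
TPM of each of the 2924 intergenic transcripts in long-read chromatin replicate 1 (x, log axis) and replicate 2 (y, log axis), with the line of equal values. Orange points are the 531 transcripts in which at least 50% of the 31-base words occur more than once in the genome. Most points form 2 arms, near 2 to 5 TPM in one library and lower in the other, and 114 transcripts reach 10 TPM in both.

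Most of the 10 most abundant transcripts lay beside pseudogenes or shared sequence with known RNAs. MSTRG.59173.1 (chr4:87894016-87894315, plus strand) stood at 647 TPM in replicate 1 and 1124 TPM in replicate 2. It began 1 base after the GENCODE end of HSP90AB3P, a processed pseudogene of a heat shock protein 90 gene. It shared bases with the RefSeq span of this pseudogene, so it is outside it in GENCODE only. It also shared 43.7% of its 31-base words with a transcript of HSP90AB1. No short-read gene lay over it.

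Both mitochondrial transcripts covered the control region, the stretch without genes in which replication and transcription of mitochondrial DNA begin. They were assembled on the minus strand. MSTRG.82717.1 (bases 1 to 410) stood at 704 and 498 TPM, and MSTRG.82745.1 (bases 16024 to 16569) at 572 and 428 TPM. Each lay under a short-read gene on the same strand. The short-read gene over the first had 7630, 5751 and 8175 normalized counts in chromatin and 18120, 16795 and 17209 in nucleoplasm. The gene over the second had 9968, 7192 and 10163 in chromatin and 16903, 15707 and 16403 in nucleoplasm. Both were lower in all chromatin libraries, with log2 fold changes of -1.29 ± 0.12 and -0.86 ± 0.12 (standard error). Neither passed the 4-fold minimum used below, and both passed it with the libraries set to the same ERCC total.

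MSTRG.54464.1 near MAT2AP1, whose end is printed above, stood at 261 and 156 TPM and shared 50.4% of its words with MAT2A. MSTRG.9748.1 next to EIF5AP4 stood at 134 and 275 TPM and shared 60.6% with EIF5AL1. MSTRG.78086.1 (chr8:114029497-114030155, minus strand) stood at 78.5 and 274 TPM and shared 64.4% with HNRNPA1, which encodes an abundant nuclear RNA-binding protein. It lay 78499 bases from the nearest GENCODE gene. In all 3 the shared words ran in the direction of the named gene. Reads from the parent genes and from the copies could be assigned to either place, so these levels are uncertain.

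MSTRG.84461.1 (chrX:72771694-72771935, plus strand) and MSTRG.84470.1 (chrX:72948873-72949127, minus strand), also among the 10 most abundant, lay near DMRTC1B and DMRTC1. They stood at 107 and 138 TPM and at 103 and 129 TPM. Every 31-base word of both was repeated in the genome, and they shared 24.5% and 23.1% of their words with BCYRN1, a short brain cytoplasmic RNA derived from an Alu element. No short-read gene lay over either.

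Repeated sequence was unevenly spread over the levels. The median transcript had 16.7% of its 31-base words elsewhere on the main chromosomes, 531 (18.2%) had at least 50%, and in 88 every word was repeated. Among the 162 transcripts with a mean of at least 10 TPM, 110 (67.9%, 95% Wilson interval 60.4 to 74.6%) were at least 50% repeated, against 15.2% (14.0 to 16.6%) of the others. The nearest gene was a processed pseudogene for 30.3% of these 162 and for 12.2% of the rest. In 76 transcripts, at least 50% of the words were found in 1 GENCODE transcript, in its direction for 55 and against it for 21. Assignment of multi-mapped reads was not tested.

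The transcripts were short. The span had a median of 1376 bases, with quartiles of 739 and 2488 bases, against a median of 2889 bases in the other MSTRG transcripts. A span over 10 kb was found in 43 (1.47%) against 24.8%, and a span under 500 bases in 394 (13.5%) against 5.55%. A transcript that avoids all genes has less room than one that does not, so the rule itself limits the span. The table gives no exons, and span covers any intron.

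The longest was MSTRG.5333.1 (chr1:165041011-165128472, plus strand, 87462 bases), at 2.87 and 2.13 TPM. The short-read gene over it, on the same strand, had 12.8, 16.8 and 0 normalized counts in chromatin and 0, 38.7 and 30.4 in nucleoplasm. These groups overlap, and the log2 fold change of -0.78 turned positive without chromatin replicate 3 (0.54) or nucleoplasm replicate 2 (0.16). The next longest were 3 transcripts of chromosome 7 and MSTRG.44759.1, described above. MSTRG.74445.1 (chr7:125563751-125643734, 79984 bases) stood at 14.2 and 9.85 TPM, MSTRG.74445.3 at 4.14 and 1.08 TPM, and MSTRG.74446.1 inside them at 5.31 and 5.79 TPM. All lay beyond POT1-AS1 on its strand, at least 80785 bases away. A single short-read gene, MSTRG.31310, covered this locus on the same strand over almost the same span (chr7:125563756-125640986). It had 6663, 8652 and 7662 normalized counts in chromatin and 1337, 1335 and 1314 in nucleoplasm, and the groups did not overlap. Its log2 fold change was 2.52 ± 0.09 (standard error; adjusted p = 2.35e-08 by limma), and 1.20 with the libraries set to the same ERCC total, which ends the 4-fold call.

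Most of the transcripts lay close to a gene. The median distance was 3434 bases, with quartiles of 1052 and 9939 bases. Within 1 kb of a gene lay 701 transcripts, within 5 kb 59.1% (1728 transcripts) and within 50 kb 94.9%. There were 28 that began or ended 1 base from a gene and 52 that lay more than 100 kb away. The nearest gene was protein coding for 1532, a lncRNA for 616 and a processed pseudogene for 387.

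The 5 farthest stood at 1 to 9 TPM. MSTRG.14548.1, MSTRG.14549.1 and MSTRG.14551.1 lay within chr11:116203949-116267467, 252458, 237176 and 229101 bases from a gene. They stood at 1.06 and 1.63 TPM, at 1.85 and 2.25 TPM and at 1.29 and 3.72 TPM. MSTRG.49611.1 on chromosome 22 stood at 8.56 and 1.40 TPM, with 85.7% of its words repeated. MSTRG.45389.1 on chromosome 2, 225405 bases from CWC22, stood at 4.62 and 2.33 TPM. None of the 5 lay under a short-read gene. The density per Mb outside genes ran from 0.8 on chromosome 18 to 5.46 on chromosome 19 over the autosomes, and was 2.46 on X.

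Of the 2924, 810 (27.7%) shared at least 1 base with the span of a RefSeq gene. This was a lncRNA for 394, a protein-coding gene for 306, a pseudogene for 63 and a transcribed pseudogene for 40. Those with a RefSeq pseudogene include the transcripts given above beside HSP90AB3P, MAT2AP1 and EIF5AP4. RefSeq here gives spans without strand. Outside GENCODE therefore does not mean outside every annotation.

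Side and strand went together next to genes. Of the 1728 transcripts within 5 kb of a gene, 1192 lay downstream of its end and 536 upstream of its start. Downstream, 770 (64.6%, 61.8 to 67.3%) were on the strand of the gene and 422 opposite. Upstream, 243 (45.3%, 41.2 to 49.6%) were on the strand of the gene and 293 opposite. All intervals here are 95% Wilson intervals. They cover counting error only and take the transcripts as independent, which those of 1 locus are not.

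The assembly of the strand-specific short reads was set beside the same places. A short-read gene is a locus assembled from the short reads with its strand, and it was counted as lying over a transcript if they shared at least 1 base and it was above 0 in any chromatin library. Among downstream transcripts with a short-read gene on 1 strand only, that strand was the strand of the neighbouring gene for 320 of 380 (84.2%, 80.2 to 87.5%). Downstream transcripts assembled on the strand of the gene had the short-read gene on their own strand in 228 of 249 cases (91.6%). Those assembled opposite to the gene had it on their own strand in 39 of 131 cases (29.8%, 22.6 to 38.1%) and on the strand of the gene in the other 92. Upstream of genes the shares were 53 of 77 (68.8%) and 46 of 78 (59.0%). The overlap is of spans, so a short-read gene need not have reads at the transcript itself. Where it is the neighbouring annotated gene reaching past its end, its strand is that of the gene by construction. Such cases were not counted apart, so these shares are not an independent reading of strand. Below, short reads on a strand stands for a short-read gene on that strand.

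**Figure D2:**
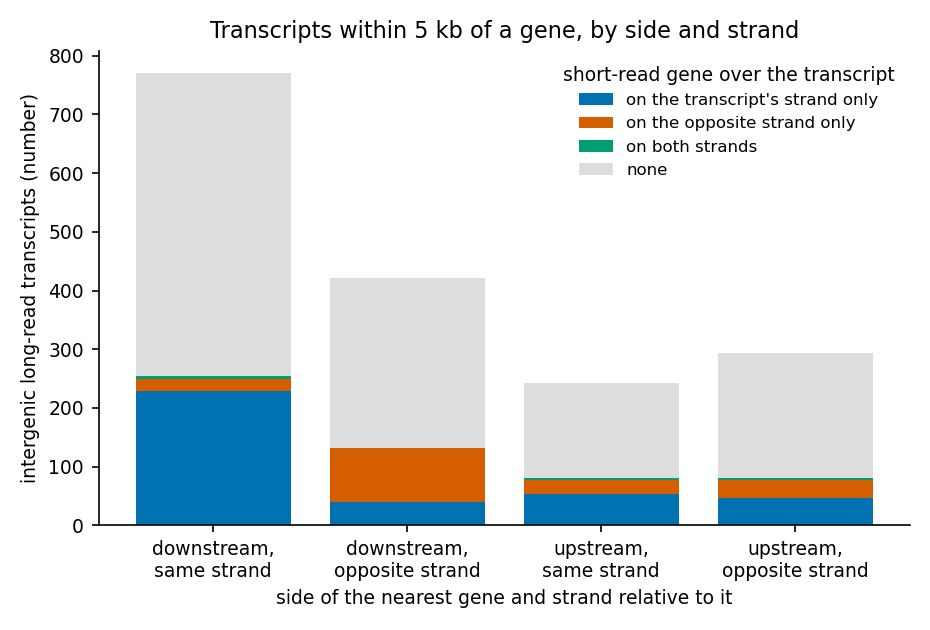
Number of intergenic transcripts within 5 kb of a gene (y), by side of the gene and strand relative to it (x). Colours give the strand of the short-read gene over the transcript. Of the 422 downstream transcripts opposite to the gene, 92 had a short-read gene only on the other strand and 39 only on their own. For the 770 on the strand of the gene these numbers were 21 and 228.

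Over all 2924 transcripts, a short-read gene lay on the same strand only for 614, on the opposite strand only for 269 (9.20%), on both for 17 and on neither for 2024 (69.2%). Where short reads were on 1 strand only, it was the strand of the transcript in 69.5% (66.4 to 72.5%). The same share was 43.2% over the other MSTRG transcripts. It was 56.6% over those of them without an annotated exon and 24.4% over those with one. Transcripts with a reference identifier are in neither set, so the naming rule itself can shift these shares. The other transcripts had a short-read gene on neither strand in 0.875%, where the short-read assembly was guided by the reference genes. The transcripts without a short-read gene had a median of the mean TPM of 2.25 and a median span of 1229 bases, against 2.67 TPM and 1940 bases for those with one on the same strand.

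The poly(A) signal followed the short-read strand. AATAAA stood in the last 50 bases of 16.5% of the transcripts with short reads only on their own strand and of 5.95% of those with short reads only on the opposite strand. For TTTATT in the first 50 bases the order was turned, with 3.75% and 10.8%. Transcripts without a short-read gene were at 16.6% and 6.03%. The other MSTRG transcripts were at 15.0% and 3.85% with short reads on their own strand and at 4.25% and 16.7% with short reads on the opposite strand. Over all, AATAAA was in the last 50 bases of 15.5% of the intergenic and 10.2% of the other transcripts, and TTTATT in the first 50 of 5.95% and 11.3%. The 6 letters were searched in these windows only, without other signal variants, and AATAAA can occur in A-rich repeats. In the table, 48.6% of the reference transcripts matched to GENCODE had a higher coordinate beyond the annotated one, by a median of 89 bases, which can move the 3′ windows of plus-strand and the 5′ windows of minus-strand transcripts. AATAAA ended 15.4% of the plus-strand and 15.7% of the minus-strand transcripts.

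**Figure D3:**
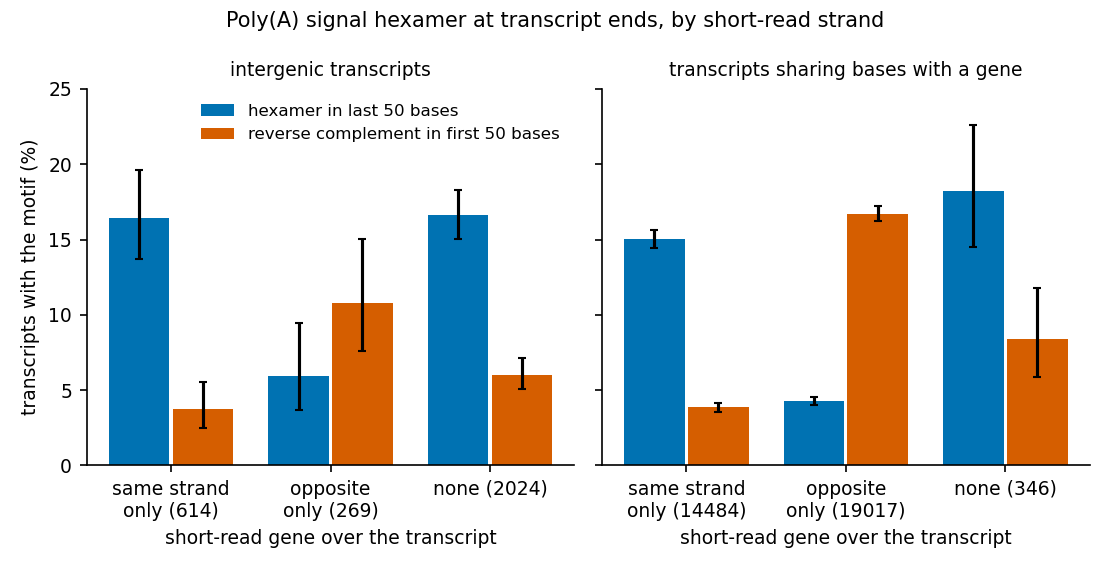
Share of transcripts (y, %) with the poly(A) signal hexamer in their last 50 bases (blue) and with its reverse complement in their first 50 bases (orange), by the strand of the short-read gene over them (x, number of transcripts in brackets). Bars start at 0 and error bars are 95% Wilson intervals. In both panels the blue bar is the higher one where short reads are on the same strand, and the orange bar where they are on the opposite strand only.

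Next to genes the same split appeared with the gene in place of the short reads. Downstream within 5 kb, AATAAA ended 18.7% of the transcripts on the strand of the gene and 10.9% of those opposite to it, and TTTATT began 3.51% and 10.9%.

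The transcripts came in clusters. With gaps of at most 10 kb, 1447 of them formed 482 clusters of at least 2, and 1477 stood alone. There were 59 clusters of at least 5, and the largest held 20. Transcripts of both strands were in 259 clusters (53.7%). Of these, 138 had a short-read gene over at least 1 transcript, and in 133 of the 138 all such short-read genes were on 1 strand. A cluster under a single short-read gene is on 1 strand by definition. Such clusters were not counted apart, so this number does not show that short-read genes shared a strand. In these 133 clusters, 221 transcripts were on the short-read strand and 130 opposite to it. There were 52 transcripts that shared bases with one on the other strand, 7 of them with identical coordinates.

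The largest cluster covered chr12:94757779-94873912, on both sides of the pseudogene KRT19P2. Beyond its far end lay NDUFA12, which encodes a subunit of respiratory complex I. It held 8 transcripts on the plus strand and 12 on the minus strand. Their spans ran from 919 to 14048 bases, and their TPM added up to 68.0 in replicate 1 and 62.7 in replicate 2. The most abundant was MSTRG.18034.1 on the minus strand, at 17.4 and 9.39 TPM, and the longest was MSTRG.18033.1 on the plus strand, at 6.26 and 3.52 TPM. All 20 lay under short-read genes, of which there were 8, and all 8 were on the minus strand.

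The 8 short-read genes of this cluster were higher in chromatin in every library. They follow each other on the minus strand, some closely: MSTRG.7575 ended at chr12:94791958 and MSTRG.7576 began at chr12:94792201. The paper reports that short-read assembly can break a single transcript into several. Whether the 8 are separate RNAs was not tested, so they are not separate measurements. The same holds for neighbouring short-read genes of the other clusters. MSTRG.7576, the most abundant, had 4984, 6794 and 4571 normalized counts in chromatin and 164, 156 and 162 in nucleoplasm, with a log2 fold change of 5.05 ± 0.13 (standard error; adjusted p = 1.07e-08 by limma). MSTRG.7582 had 4644, 5891 and 4364 against 185, 179 and 168, giving a log2 fold change of 4.79 ± 0.11. MSTRG.7575 had 3117, 4702 and 2894 against 128, 116 and 120, giving a log2 fold change of 4.83 ± 0.16. In all of these chromatin replicate 2 was the highest library, and the groups did not overlap. The 7 of the 8 that were tested had log2 fold changes between 4.50 and 5.08 and were called, against 21.2% of all tested genes. MSTRG.7574 fell below the filter, with 12.8, 24.02 and 7.68 in chromatin and 0 in all 3 nucleoplasm libraries.

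**Figure D4:**
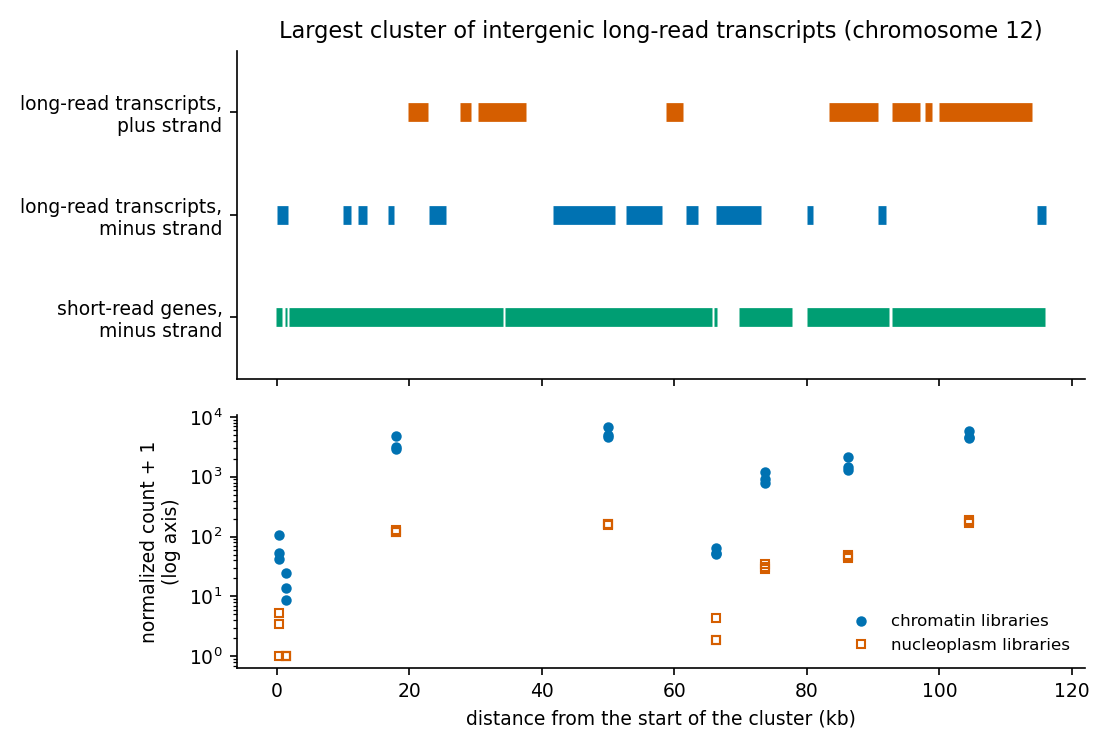
The largest cluster, on chromosome 12, by distance from its start (x, kb). The upper panel shows the 8 plus-strand and 12 minus-strand long-read transcripts and the 8 short-read genes, all on the minus strand. The lower panel shows the normalized count + 1 of each short-read gene in the 3 chromatin (filled) and 3 nucleoplasm (open) libraries (log axis), with the chromatin points above the nucleoplasm points for every gene.

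The second cluster covered chr13:64080049-64169103 beside LINC00355, a lncRNA on the minus strand. It held 12 transcripts, 11 of them on the plus strand, with summed TPM of 36.5 and 32.5. The longest, MSTRG.20808.1 (14454 bases), lay 4005 bases upstream of LINC00355 and opposite to it, and stood at 4.43 and 5.14 TPM. The single transcript on the minus strand, MSTRG.20810.1, stood at 1.48 and 3.30 TPM and had short reads only on the plus strand. Both short-read genes of the cluster were on the plus strand. MSTRG.8647 had 3447, 4221 and 3227 normalized counts in chromatin and 204, 173 and 156 in nucleoplasm, giving a log2 fold change of 4.35 ± 0.12 (standard error; adjusted p = 1.29e-08 by limma). MSTRG.8648 had 1249, 1559 and 1202 against 70.2, 48.2 and 47.3, giving a log2 fold change of 4.59 ± 0.17. These short-read genes ended before the cluster did, and 7 of its 12 transcripts had no short-read gene.

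The cluster with 11 transcripts on chromosome 19 (chr19:47904248-47957959, between SULT2A1 and BSPH1) was of a different kind. Its transcripts spanned only 272 to 382 bases and had summed TPM of 269 and 495. The median share of repeated words in them was 100%. The transcripts shared 55.4% to 92.9% of their words with the lncRNA ENSG00000287001. All 11 hold 1 identical stretch of 82 bases, and these stretches lie 5050 to 5391 bases apart. Of the transcripts, 8 were on the plus strand and 3 on the minus strand.

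All 9 short-read genes over the chromosome 19 cluster were on the plus strand, so the 8 plus-strand transcripts had short reads on their strand and the 3 minus-strand transcripts had them on the other. The counts fell near common values, with 3 genes between 219 and 281 in chromatin and 4 between 58.9 and 83.9. MSTRG.17354 had 271, 228 and 281 normalized counts in chromatin and 47.4, 52.5 and 51.5 in nucleoplasm, and MSTRG.17359 had 271, 232 and 279 against 47.4, 51.7 and 51.5. Their log2 fold changes were 2.34 ± 0.11 and 2.35 ± 0.11 (standard error; adjusted p = 1.26e-07 and 9.53e-08 by limma). Over the 9 genes the log2 fold change ran from 1.81 to 3.88, and 8 were called. MSTRG.17356, with the highest fold change, had 93.2, 138 and 107 in chromatin and 24.6, 16.4 and 0 in nucleoplasm. With the libraries set to the same ERCC total, 7 of the 8 calls were lost. Reads of identical copies cannot be told apart, so the copies are not separate measurements.

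The other clusters among the 5 largest had little or no short-read cover. The one at chr2:185936554-186029175 held 11 transcripts, 7 on the minus strand, with summed TPM of 26.0 and 32.3, and 8 of the 11 had no short-read gene. Its short-read genes, MSTRG.19645 and MSTRG.19646, were on the minus strand, with log2 fold changes of 4.58 ± 0.13 and 4.08 ± 0.19. At chrX:45787318-45842061, between MIR222HG and LINC02595, 10 transcripts, 5 on each strand, were interspersed over 54744 bases with summed TPM of 43.6 and 28.5. No short-read gene lay over any of them. It shares its size with 2 more clusters of 10, on chromosomes 5 and 7, and is named because it came first in the order used.

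Short-read genes on the strand of an intergenic transcript were compared between fractions to ask how the RNA of these places was divided. As a check of the titles, the nuclear lncRNAs MALAT1 and PVT1 had log2 fold changes of chromatin over nucleoplasm of 3.09 and 3.11, and GAPDH and B2M, whose mRNAs are exported, had -2.35 and -2.11. The test was limma on log2(normalized count + 1), and a gene was called at an adjusted p under 0.05 and a log2 fold change above 2 or below -2. Of 487 such genes, 480 passed the filter on low counts. Of these, 193 (40.2%, 35.9 to 44.7%) were called in chromatin, against a background of 21.2% over the 26066 genes tested, and 8 (1.67%) in nucleoplasm, against 8.47%. The median log2 fold change was 1.21, against -0.02 over all tested genes. All 3 chromatin libraries were above all 3 nucleoplasm libraries for 316 (65.8%), against 44.6%. The counts cover the whole short-read gene and not only the part shared with the transcript. Both the transcripts and the short-read genes over them were required to be present in chromatin libraries, and there is no long-read nucleoplasm library. This choice favours genes that are higher in chromatin over all tested genes, so the distance from the background cannot be told apart from the selection. The same holds for the lists below. In bulk libraries, RNA present in fewer cells and less RNA per cell cannot be told apart.

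These shares depended on whether the short-read gene also touched an annotated gene. Of the 228 that shared bases with a gene on their own strand, 45 (19.7%) were called in chromatin, close to the background. Of the 235 that shared bases with no GENCODE gene, 137 (58.3%, 51.9 to 64.4%) were called. Intergenic short-read genes without any long-read transcript of the list were called in 249 of 607 cases (41.0%, 37.2 to 45.0%). They were less abundant, with a median chromatin mean of 52.7 normalized counts against 239. They were also shorter, with a median span of 437 bases against 1747. The bins that follow are of the mean count only and do not take span into account. Within bins of the mean over all 6 libraries the shares were 33.3% and 47.2% below 30 counts, 52.4% and 39.6% from 30 to 100, 55.9% and 38.5% from 100 to 300, and 72.1% and 27.5% from 300 on, with and without a long-read transcript. The order was thus the other way in the lowest bin. Where transcripts covered at least 50% of the short-read gene on its strand, 99 of 182 (54.4%) were called in chromatin.

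Short-read genes that lay only opposite to an intergenic transcript were counted in the same way. Of 164, 163 were tested, 64 (39.3%, 32.1 to 46.9%) were called in chromatin and 3 in nucleoplasm, with a median log2 fold change of 1.04. Among the 78 that shared no base with a gene, 41 (52.6%, 41.6 to 63.3%) were called. The intervals of the lists on the same and on the opposite strand overlapped, and the difference was not tested.

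**Figure D5:**
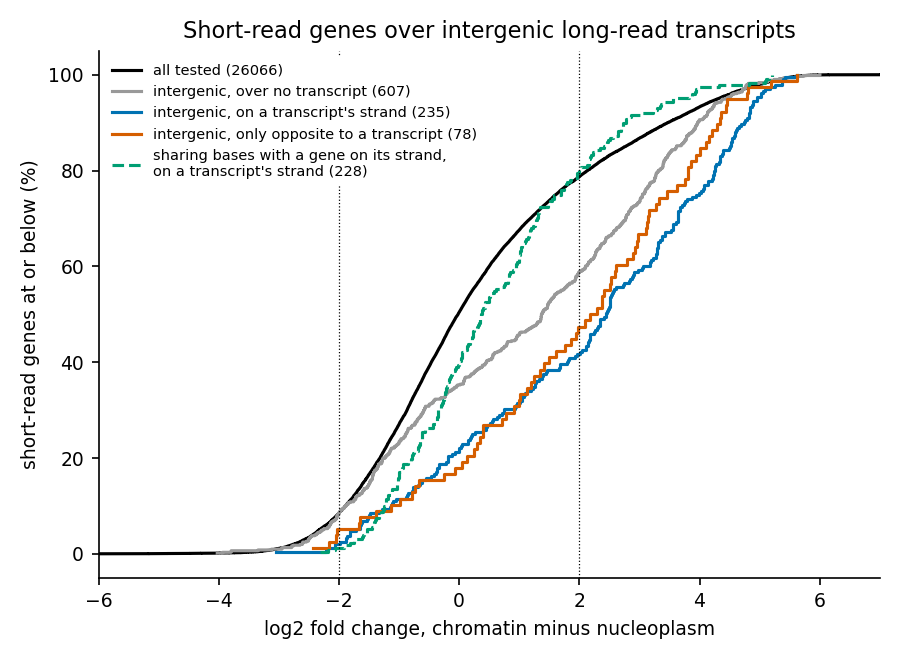
Share of short-read genes (y, %) at or below a log2 fold change of chromatin over nucleoplasm (x), for all 26066 tested genes and for genes over intergenic transcripts (numbers in brackets). Dotted lines mark -2 and 2. The curves of the intergenic genes over a transcript on either strand (blue, 235 and orange, 78) lie to the right of that of intergenic genes over none (grey, 607). Of the genes that share bases with an annotated gene on their strand (green, 228), 19.7% were called in chromatin, against 21.2% of all genes (black). A call also needs an adjusted p under 0.05, which the curves do not show.

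The scaling of the libraries moved these counts. With the libraries set to the same ERCC total, the median log2 fold change of all tested genes moved from -0.02 to -1.33. Then 111 of the 480 (23.1%), against 3138 of all 26066, were called in chromatin and 84 (17.5%, background 34.5%) in nucleoplasm. With the same total of reads the median over all genes was 0.44, and 217 (45.2%, background 25.6%) were called in chromatin and 1 (0.208%, background 3.83%) in nucleoplasm. Under all 3 scalings the share called in chromatin was above the background and the share called in nucleoplasm below it. Leaving out chromatin replicate 2 reduced the 8 nucleoplasm calls to 5.

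The 5 largest fold changes toward chromatin lay beyond the ends of protein-coding genes, and on the strand of the gene in 4 of them. A downstream position was common among the transcripts, at 1192 of the 1728 within 5 kb of a gene. Its share over the tested short-read genes was not counted, so it is not a trait of these 5. MSTRG.35265 (chrX:81310961-81319557, plus strand) had 819, 908 and 672 normalized counts in chromatin and 16.7, 17.2 and 11.8 in nucleoplasm. Its log2 fold change was 5.63 ± 0.17 (standard error; adjusted p = 1.5e-08 by limma). MSTRG.35267 (chrX:81329420-81333061, plus strand) had 360, 467 and 338 against 4.39, 12.9 and 9.29, giving a log2 fold change of 5.39 ± 0.32 (adjusted p = 4.81e-07 by limma). One long-read transcript, MSTRG.84684.1, ran over part of both. The gene nearest to this transcript was SH3BGRL, 18680 bases away on the same strand. MSTRG.84684.1 stood at 1.85 and 3.02 TPM. MSTRG.35265 also lay opposite to MSTRG.84683.1, on the minus strand, at 3.27 and 2.58 TPM.

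MSTRG.35218 (chrX:74574228-74577421, minus strand), downstream of the ubiquitin ligase gene RLIM, had 578, 580 and 494 in chromatin and 15.8, 11.2 and 9.29 in nucleoplasm, giving a log2 fold change of 5.42 ± 0.18. MSTRG.24770 (chr4:48429713-48434950, plus strand), downstream of the microtubule regulator SLAIN2, had 563, 629 and 627 against 15.8, 17.2 and 9.29, giving a log2 fold change of 5.37 ± 0.21. MSTRG.1605 (chr1:100763101-100791993, minus strand), opposite to and beyond the adhesion receptor gene VCAM1, had 2551, 3920 and 3001 against 78.1, 67.2 and 78.6, giving a log2 fold change of 5.37 ± 0.15. Limma's adjusted p for these was 2.22e-08, 3.89e-08 and 1.2e-08. In all 5 the groups did not overlap, and no alternative tried ended a call. The transcripts over MSTRG.35218 and MSTRG.24770 stood at 1.08 and 3.92 TPM and at 0.411 and 2.01 TPM. They lay 5527 bases from RLIM and 3417 bases from SLAIN2. Those on the strand of MSTRG.1605 lay 32730 and 48616 bases from VCAM1.

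Of the 8 called in nucleoplasm, 3 shared bases with an annotated gene on their strand. MSTRG.4034, over the transcript beside EIF5AP4, had 243, 199 and 303 normalized counts in chromatin and 2014, 2009 and 2108 in nucleoplasm. Its log2 fold change was -3.05 ± 0.13 (standard error; adjusted p = 7.09e-08 by limma), the lowest of the 480. MSTRG.32803 on chromosome 8, over the transcript that shares words with HNRNPA1, had 467, 437 and 524 against 2185, 2166 and 2101, giving a log2 fold change of -2.18 ± 0.07. MSTRG.25275 on chromosome 4 had 110, 105 and 127 against 566, 523 and 501, giving a log2 fold change of -2.21 ± 0.10. MSTRG.7928 took in RPLP0, a ribosomal protein gene, with -2.32 ± 0.09, and MSTRG.30179 took in the small GTPase gene RAC1, with -2.19 ± 0.06. With the same total of reads, only MSTRG.4034 of these 5 stayed past -2. By contrast, MSTRG.23286, over the transcript near MAT2AP1, was higher in chromatin, with 358, 321 and 337 against 78.1, 99.0 and 81.1. Its log2 fold change of 1.97 ± 0.11 (adjusted p = 3.11e-07 by limma) lay just under the threshold and passed it in edgeR and DESeq2.

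The most abundant short-read genes on the strand of an intergenic transcript held annotated genes and reached past the GENCODE end of the gene named. Each is named for the annotated gene on its strand that shares the most bases with it. Other annotated genes inside it were not listed, and its counts cover the whole short-read gene. MSTRG.765, which holds the splicing factor gene SFPQ, had 40811, 43859 and 40759 normalized counts in chromatin and 16673, 20960 and 18087 in nucleoplasm, giving a log2 fold change of 1.18 ± 0.08. The transcript, 1637 bases downstream of SFPQ, stood at 3.50 and 0.103 TPM. MSTRG.8374, with the replication factor gene RFC3, had 34613, 39665 and 34266 against 7054, 7457 and 6935. Its log2 fold change of 2.34 ± 0.07 was the only call among the 5 (limma adjusted p = 1.28e-08), and it was 1.01 with the same ERCC total. It held 2 of the transcripts, 940 and 6159 bases downstream of RFC3, at 2.61 and 5.16 TPM and at 2.53 and 4.43 TPM. The short-read genes named for HNRNPC, KIF23 and HMGCS1 were at -0.23, -0.44 and -0.997. The one named for KIF23 ran to chr15:69456205, and the transcript in it began at chr15:69448759, 332 bases past KIF23. The signs for those named for SFPQ, HNRNPC and KIF23 turned under one of the other scalings.

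Among genes that lay only opposite to a transcript, the 5 most abundant also held annotated genes and are named in the same way. CENPF, a kinetochore protein gene, had 28117, 26525 and 30105 normalized counts in chromatin and 28832, 26517 and 26258 in nucleoplasm, and these overlap (log2 fold change 0.05 ± 0.06, limma adjusted p = 0.438). SREBF2, which encodes a transcription factor of cholesterol synthesis, lay opposite to 4 transcripts, at -0.48 ± 0.05. XPO6 and CKAP5 were at -0.13 and -0.94, and HELLS, a chromatin remodeling helicase gene, at 1.31 ± 0.07. The signs for CENPF, XPO6 and HELLS turned under one of the other scalings. None of the 5 was called. The transcript opposite to CENPF, MSTRG.6666.1, lay 831 bases beyond the annotated end and stood at 0.441 and 7.17 TPM.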

How the data were processed

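HAP1 chromatin was measured in 2 long-read and 3 short-read libraries, and nucleoplasm in 3 short-read libraries from independent cultures. Groups were taken from the sample titles, since another label names every library chromatin. The authors aligned the long reads with minimap2, assembled and merged them with StringTie and deposited TPM, which keep no depth. The authors describe a step that assigns strands to long reads from primer sequences ahead of alignment, and whether the deposited table was made with it is not given in the sources used here. For the short reads the authors used HISAT2 2.1.0 and StringTie, and the deposited values are normalized counts (a coverage-based signal divided by DESeq2 size factors). All values gave whole reads within 0.001, with 38816272 to 43714811 reads per chromatin and 75680880 to 79477655 per nucleoplasm library without ERCC. Since these come from coverage, they are estimates.

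Overlaps and distances used GENCODE release 44 (hg38), a later release than the authors used, and RefSeq spans of GRCh38.p14. Reference transcripts kept their chromosome, strand and lower coordinate in all 215345 matched identifiers. Words of 31 bases were counted on both strands of the main chromosomes. The planned share of soft-masked bases was not computed, because the reference was in capitals only.

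Short-read genes were tested with limma 3.58.1 (R 4.3.3, mean-variance trend) on log2(normalized count + 1), with Benjamini-Hochberg adjustment over 26066 genes longer than 200 bases that reached a normalized count of 10 in 3 or more libraries. A call needed an adjusted p under 0.05 and a log2 fold change above 2 or below -2. Fold changes understate those of low genes. Scripts were tested on simulated data. Alternatives included edgeR 4.0.16 and DESeq2 1.42.0 on the recovered reads.

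The text names the 10 most abundant, 5 longest and 5 farthest transcripts, the 5 largest clusters, the short-read genes over these, and the 5 largest and smallest fold changes and 5 most abundant short-read genes. The transcripts beside named genes, the bins of mean count, the lists split by annotated genes and the examples of sequence were chosen after values were seen. The transcripts and lists were chosen with earlier results of these data known. Some sequences and 1 locus among the 10 most abundant transcripts are not reported here.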

Additional observations from a re-analysis of the deposited data

How the results depend on the processing

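Requiring at least 1 TPM in both long-read libraries left 1771 of the 2924 transcripts, at least 10 TPM 114, and at least 5 kb to any gene 1196. With 1 library only, 3913 and 4314 transcripts were above 0. The share with a short-read gene on the same strand was 21.6%, and 18.33% with at least 50% of the transcript covered, 24.39% from 1 TPM and 36.84% from 10 TPM. For the opposite strand it was 9.78%, and 8.003% with at least 50% covered and 12.28% from 10 TPM. A gap of 1 kb gave 267 clusters in place of 482. The share near a gene was 23.97% at 1 kb, 75.1% at 10 kb and 50.27% at 5 kb of protein-coding and lncRNA genes only. The median span was 1309 bases from 1 TPM. The SD of the log2 ratio of the replicates was 2.091 at a pseudocount of 0.01 and 1.115 at 1.

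The 193 chromatin and 8 nucleoplasm calls were 111 and 84 with the same ERCC total and 217 and 1 with the same total of reads, and 64 genes (13.3%, against 26.9% of all tested genes) were called in nucleoplasm at a log2 fold change below -1. The 64 chromatin calls opposite to a transcript were 34 with the same ERCC total. Chosen after seeing the data, coverage of at least 50% of the short-read gene left 99 chromatin calls, and the absence of any annotated gene left 41 opposite. Leaving out each library gave 191 to 197, 5 to 10 and 64 to 66 calls, with 5 without chromatin replicate 2. With the replicate block the counts were 193, 8 and 64. Same-numbered libraries had correlations of 0.087, 0.053 and 0.063 in their deviations from the group means. These are low, but each was the highest for its library. The paper describes the fractions as coming from independent cultures, so same-numbered libraries may share a culture. The main test did not pair them, and the replicate block gave the same counts.

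Of 713 values of 45 named genes, 676 kept their direction and side of the threshold, 15 passed it, 14 lost it and 8 turned sign. Of the 15, 5 kept their fold change and passed only because the threshold was lowered to above 1 or below -1. With the same ERCC total, SFPQ (MSTRG.765) was at -0.1478, CENPF (MSTRG.2892) at -1.27 and HELLS (MSTRG.4169) at -0.01609. With the same total of reads, HNRNPC (MSTRG.8988) was at 0.2373, KIF23 (MSTRG.10915) at 0.0212 and XPO6 (MSTRG.12230) at 0.3347. MSTRG.2391 ran from -2.495 without nucleoplasm replicate 1 to 0.5427 without chromatin replicate 3. Apart from scaling and fewer libraries or genes, the cause of these changes was not tested. The long-read TPM carry no depth, so low values have no counting limit.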
